A study of Homo sapiens with 20 samples.

Results

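The interleukin-1 (IL-1) family genes IL1A, IL1B, IL1RN, IL1R1, IL1R2, IL1RAP, IL1RL1, IL33 and IL18 were followed across cultures of SUM159PT cells, a line derived from triple-negative breast cancer. The genes were chosen by name, as 5 ligands and 4 receptor genes of the family, with earlier results of these data known. They are a part of the family, and other members are given as a list further below. All 9 were found by their Entrez identifiers among the 27864 genes of the deposited count table, and all 9 were among the 16323 genes that passed the filter on low counts. IL33 and IL1RN passed it through the groups in which they were high, since their counts in several other groups were close to 0.

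IL-1α (IL1A) and IL-1β (IL1B) are the agonists of the IL-1 receptor, and the receptor antagonist (IL1RN) occupies the same receptor without signalling. Signalling needs the binding receptor IL1R1 and the shared co-receptor IL1RAP, which together recruit MYD88 and IRAK kinases and switch on NF-κB and AP-1. The decoy receptor IL1R2 binds IL-1 but lacks the signalling domain. IL-33 (IL33) is a nuclear alarmin of barrier and stromal cells whose receptor, ST2, is encoded by IL1RL1 and also pairs with IL1RAP. IL-18 (IL18) is made as a precursor in many epithelia and, like IL-1β, is cut by caspase-1. In breast carcinoma IL-1 is known as an inducer of inflammatory cytokines and chemokines.

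mRNA was sequenced from 20 libraries in 7 groups. The KOs pool carried a single sgRNA at the transcription start site of NNMT, the enzyme that methylates nicotinamide. The KOd pool carried 2 sgRNAs that delete its exon 1. Both were oligoclonal, that is, several edited clones were mixed. Wild-type cells (wt) were not edited. Each was grown as secondary tumorspheres in suspension (labelled KOs 3D, KOd 3D and wt 3D, n = 3 each) and as adherent cells (labelled KOs 2D, KOd 2D and wt 2D, n = 3 each). The remaining group, wt 2D Rosens (n = 2), was adherent wt cells whose standard medium was exchanged for tumorsphere medium at 50% confluency and which were taken at 80%. Standard medium was Ham's F12 with 5% serum, insulin and hydrocortisone, a glucocorticoid. Tumorsphere medium was DMEM/F12 with B27, EGF and basic FGF at 20 ng/mL each, without the serum, and spheres went through 2 rounds of 6 days. Tumorspheres and standard adherent cultures therefore differ in medium and in attachment together. Between wt 3D and wt 2D Rosens both attachment and time in tumorsphere medium differ, and these cannot be told apart. The labels name 2 RNA kits without saying which cultures each served.

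Read totals were 37316513 to 43744817 in the 6 libraries labelled KOs, against 26396964 to 32016875 in the other 14. The share of reads from ribosomal RNA genes was 0.926% to 2.70% in libraries labelled KOs, against 2.82% to 8.46% elsewhere, so depth and ribosomal share cannot be told apart from the labelled KOs pool. NNMT mRNA was low in KOd, with 4.65, 5.18 and 5.64 CPM in 3D and 4.39, 4.64 and 4.62 CPM in 2D, but not in the libraries labelled KOs, where 85.1, 82.9 and 86.4 CPM in 3D stood against 85.7, 79.5 and 129.9 CPM in wt 3D, so this label is not checked by the mRNA and every direction drawn from it is that of the libraries so labelled. Over all genes replicate A of labelled KOs 2D and replicate C of both KOd 3D and wt 3D stood apart from their groups. Their median absolute log2 differences from the other replicates were 0.379, 0.187 and 0.262 in that order, the largest within each group. Replicates C (0.277) and B (0.196) of labelled KOs 2D also differed, but are not counted among the libraries that stand apart. The cells carried the line's mesenchymal markers, with VIM at 2537 CPM or more in every library. Of the hormone receptor, ERBB2 and luminal markers, ESR1 was at most 0.315 CPM, PGR was at 0 in 17 of 20 and TFF1 in 18. The others were read in every library, ERBB2 at 54.2 to 99.0 CPM, GATA3 at 1.30 to 14.4 CPM and FOXA1 at 0.941 to 3.05 CPM. Among the leukocyte markers, TYROBP and MS4A1 were at 0 in all libraries, while PTPRC, CD14, CD163 and CSF1R were read in every one, at 0.0745 to 6.21 CPM. Of 4 mast cell markers MS4A2 was at 0 in all and KIT in 17 libraries, while CPA3 reached 1.28 CPM and TPSAB1 2.25 CPM. CPM is the read count scaled to library depth, here to the library total after TMM scaling. Because these are bulk libraries, fewer cells making an mRNA and less of it per cell cannot be told apart.

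IL1A, IL1B, IL1RN and 3 receptor genes lie on chromosome 2 in 2 clusters, with positions from RefSeq on GRCh38.p14. The receptor cluster holds IL1R2 (chr2:101991960-102028544), IL1R1 (chr2:102070390-102179874) and IL1RL1 (chr2:102311563-102352356), all on the + strand. The ligand cluster holds IL1A (chr2:112773925-112784493) and IL1B (chr2:112829751-112836779) on the − strand and IL1RN (chr2:113099360-113134014) on the + strand. IL1RAP lies at chr3:190514085-190659750 (+), IL33 at chr9:6215149-6257983 (+) and IL18 at chr11:112143260-112164094 (−), 2.09 Mb from NNMT.

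Promoter windows of 300 bases from RefSeq (250 before a transcript start and 50 from it) were found for 8 of the 9 genes, 17 windows in all, and were searched for AP-1 (TGANTCA, which reads the same on both strands) and the NF-κB consensus (both strands). Shown are the first windows of IL1A and IL1B, the agonists, and the IL1RN and IL1RL1 windows with a match, since IL1RN separated the pools from wt in tumorspheres and IL1RL1 had the largest change between 2 groups. Capitals mark AP-1 matches.

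IL1A (chr2:112784351-112784650, − strand): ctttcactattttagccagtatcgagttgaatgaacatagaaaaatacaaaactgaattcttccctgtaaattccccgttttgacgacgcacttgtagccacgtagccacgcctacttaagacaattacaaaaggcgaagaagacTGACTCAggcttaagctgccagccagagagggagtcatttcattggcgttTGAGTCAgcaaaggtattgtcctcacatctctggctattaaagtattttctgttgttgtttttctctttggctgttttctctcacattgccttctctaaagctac
IL1B (chr2:112836730-112837029, − strand): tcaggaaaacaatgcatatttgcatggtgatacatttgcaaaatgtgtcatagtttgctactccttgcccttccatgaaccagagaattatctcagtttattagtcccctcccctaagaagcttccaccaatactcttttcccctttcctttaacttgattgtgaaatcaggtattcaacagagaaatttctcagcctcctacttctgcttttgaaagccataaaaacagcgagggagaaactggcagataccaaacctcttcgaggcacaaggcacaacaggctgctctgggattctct
IL1RN (chr2:113117721-113118020, + strand): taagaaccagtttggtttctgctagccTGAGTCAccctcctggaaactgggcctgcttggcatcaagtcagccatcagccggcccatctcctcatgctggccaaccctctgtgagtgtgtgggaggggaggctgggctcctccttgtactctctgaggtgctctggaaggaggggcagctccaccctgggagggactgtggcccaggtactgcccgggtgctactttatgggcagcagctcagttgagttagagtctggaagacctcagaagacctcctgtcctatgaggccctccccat
IL1RL1 (chr2:102337007-102337306, + strand): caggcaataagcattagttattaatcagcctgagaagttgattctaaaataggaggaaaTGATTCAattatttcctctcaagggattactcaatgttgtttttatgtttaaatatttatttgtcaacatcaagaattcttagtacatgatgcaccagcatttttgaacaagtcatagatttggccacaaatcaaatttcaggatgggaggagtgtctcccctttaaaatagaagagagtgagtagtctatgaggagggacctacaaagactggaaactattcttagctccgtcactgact

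AP-1 matches were found in 4 of the 17 windows. The IL1A window above has 2, beginning 105 and 55 bases before the start, and a second IL1A window overlaps it and holds the same 2. The IL1RN match begins 223 bases and the IL1RL1 match 191 bases before the start, while the IL1B window holds none. The NF-κB consensus was found in 1 window, of IL1R2, beginning 125 bases before the start. Of 35116 promoter windows of all genes, 7.71% hold the AP-1 letters and 11.3% the NF-κB consensus. A match is a description of these letters only.

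Both agonist genes were lowest in adherent wt cells in standard medium and highest in tumorspheres labelled KOs. They were higher in adherent wt cells given tumorsphere medium than in wt tumorspheres. IL33 was nearly silent in every standard adherent culture and was read in every group grown in tumorsphere medium. IL1RL1 went opposite ways, far up in adherent cells given tumorsphere medium and far down in tumorspheres. The antagonist IL1RN rose in the tumorspheres of both edited pools and not in wt, and IL18 was lower in each group in tumorsphere medium than in standard adherent cells of the same genotype.

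**Figure D1:**
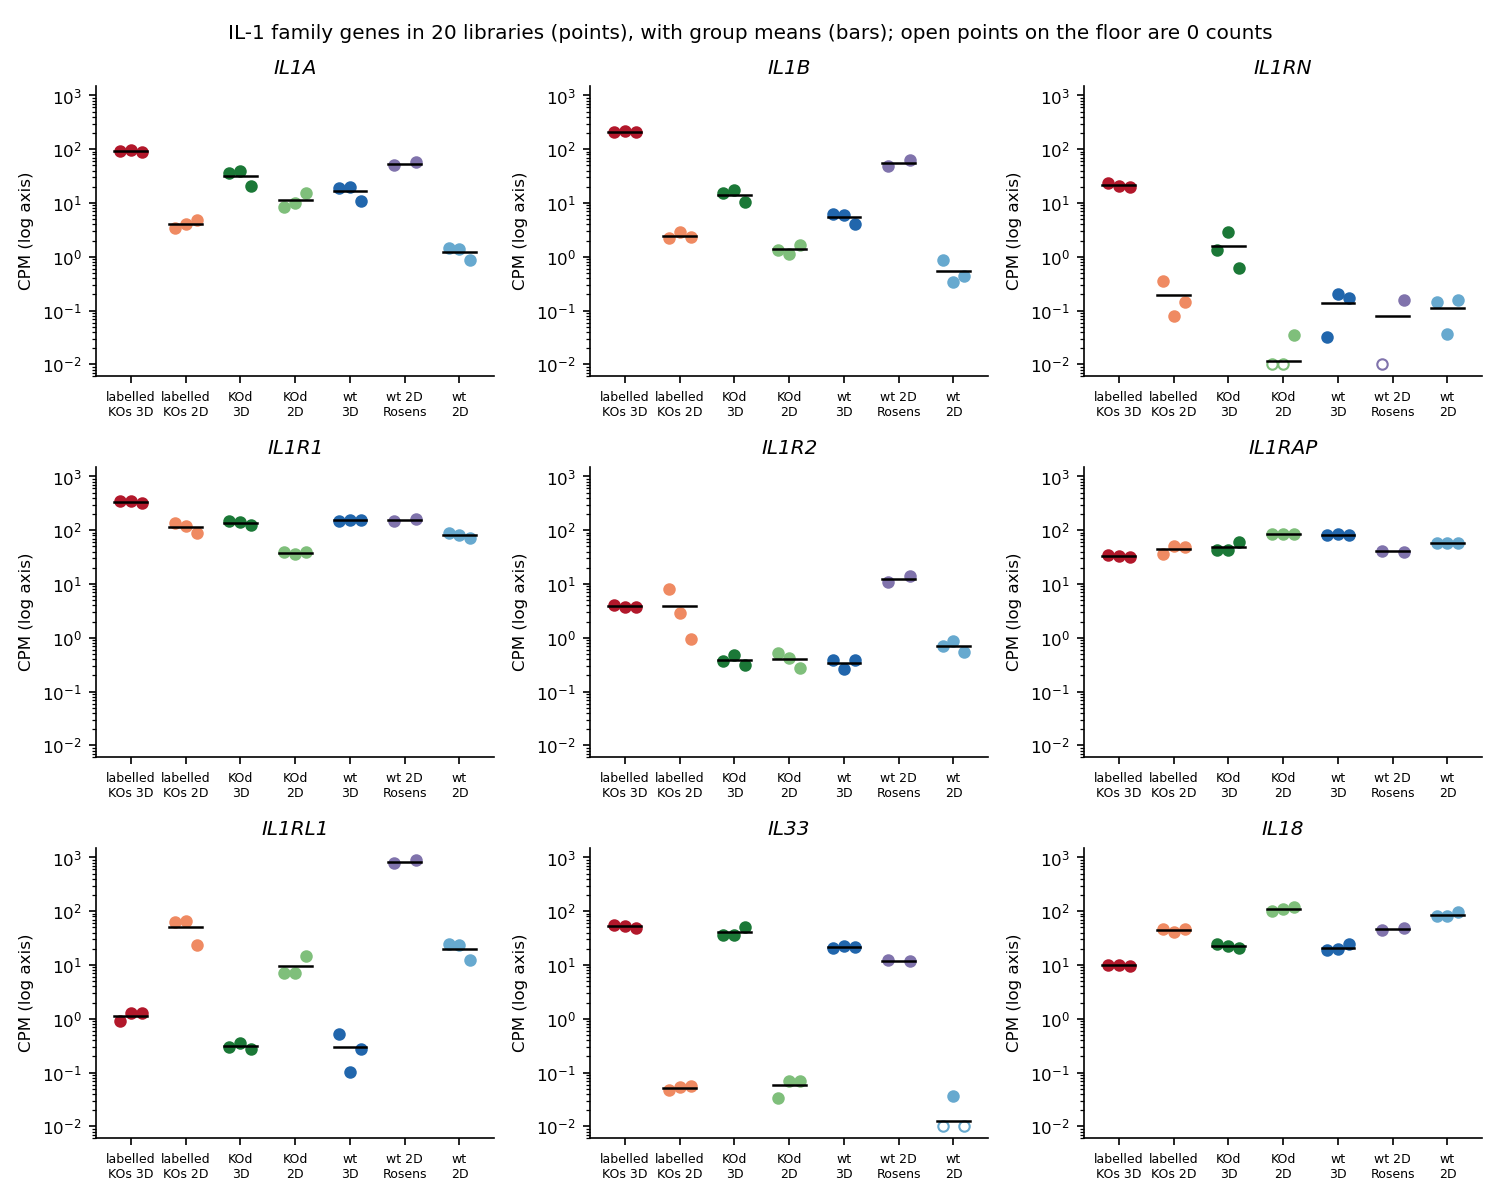
Each panel shows 1 gene, with CPM on a log axis, 1 point per library, black bars at group means and open points at the floor for libraries with 0 counts. IL33 stands at 0.0698 CPM or less in every standard 2D library and between 11.8 and 55.2 CPM in all others, while IL1RL1 spans 0.101 to 878.9 CPM.

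Counts of the 9 genes that passed the test (edgeR quasi-likelihood, adjusted p under 0.05 over all 16323 genes) are given beside the share of all genes that passed. In wt 3D against wt 2D, 5 rose (33.3% of all genes rose) and 2 fell (30.4%), where 63.7% of all genes passed. In labelled KOs 3D against labelled KOs 2D, 5 rose (32.9%) and 3 fell (32.1%), with 65.0% of all genes passing. In KOd 3D against KOd 2D, 5 rose (35.2%) and 3 fell (31.2%), with 66.4% passing. Where so many genes passed, the counts say little about this family, and the size and direction of each gene's change carry the description. The counts also include IL33, and in the pools IL1RN, which passed the filter only through groups in which they were high. In wt 2D Rosens against wt 2D, 6 rose (15.6%) and 2 fell (16.4%), where 32.0% of all genes passed. That share rests on 5224 genes, which were 3192 without replicate A and 2752 without replicate B of wt 2D Rosens and 7968 without the 3 libraries that stand apart. The median log2 fold change of the 9 genes was 4.15 there, against 0 over all genes. IL33 passed the filter on low counts only through groups in tumorsphere medium, this one included. Its rise thus followed from the filter, which limits both the count and the median. In wt 3D against wt 2D Rosens 2 rose (32.8%) and 5 fell (30.0%), with 62.8% of all genes passing. All comparisons with wt 2D share its 3 libraries.

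Against wt 2D, 5 rose (27.7% of all genes) and 2 fell (25.5%) in labelled KOs 2D, where 53.2% passed. In KOd 2D 4 rose (22.1%) and 2 fell (22.5%), where 44.6% passed. In tumorspheres each of the 9 passed in labelled KOs 3D against wt 3D, with 7 that rose (27.8%) and 2 that fell (28.5%), where 56.3% of all genes passed. In KOd 3D against wt 3D 4 rose (16.5%) and 1 fell (17.5%), where 34.0% passed. IL1RN passed the filter on low counts only through labelled KOs 3D and KOd 3D. Its rises over wt 3D thus followed from the filter, and neither count can be set against the share of all genes. The IL1RL1 call in labelled KOs 3D was unstable, as described below. The labelled KOs 3D and KOd 3D contrasts share the wt 3D libraries. The change with 3D culture was above that of wt for 3 genes (17.9% of all genes) and below it for 1 (19.0%) in the labelled KOs pool, where 36.8% passed. In KOd it was above for 2 (14.4%) and below for 2 (14.7%), where 29.1% passed. IL1RN was among those above in both pools, so the same limit of the filter holds for these counts.

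**Figure D2:**
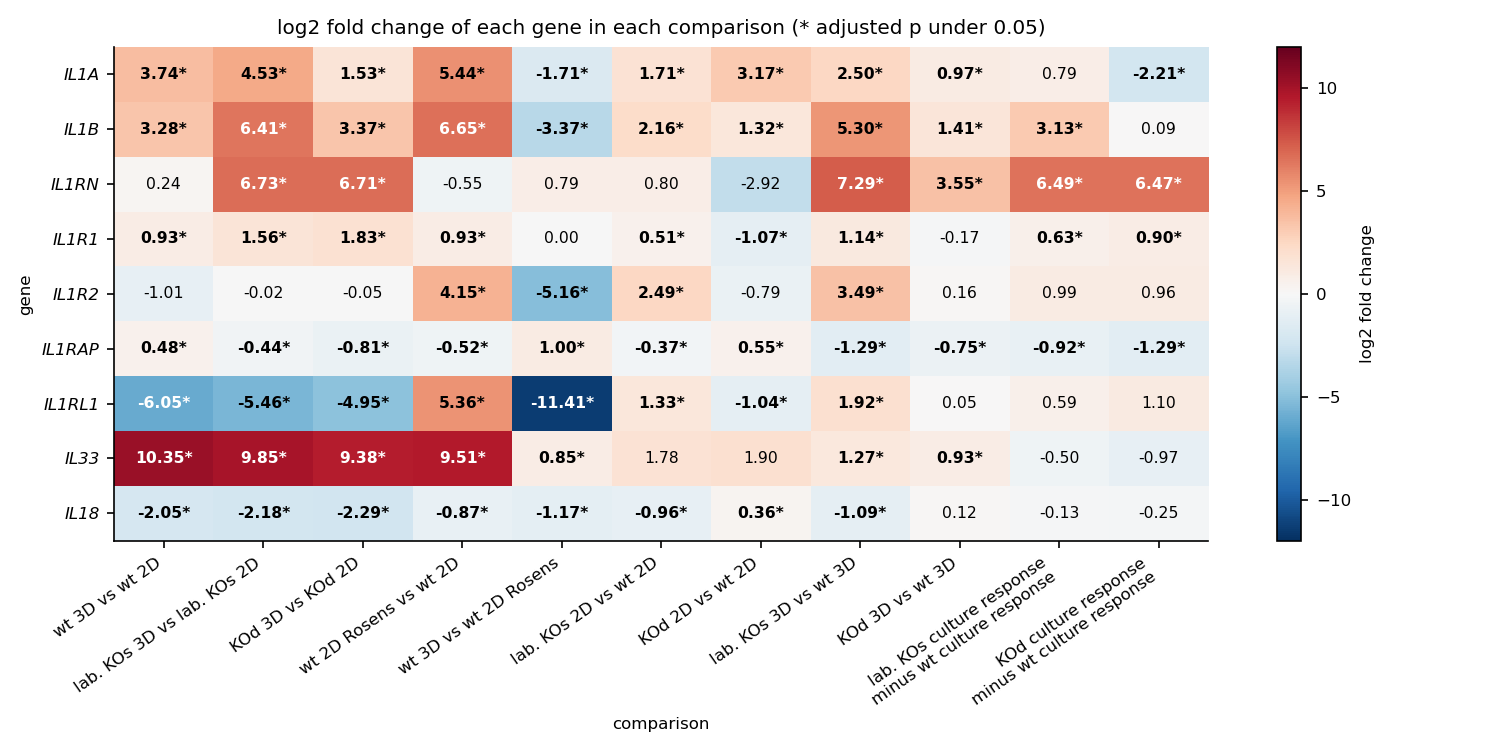
Rows are genes and columns are the 11 comparisons, and each cell gives the log2 fold change of the group named first over the group named second, with * for an adjusted p under 0.05. The last 2 columns give the difference between a pool's 3D against 2D change and that of wt, and the IL33 and IL1RL1 rows hold the extreme values of 10.35 and -11.41, the IL33 one set by 1 read in wt 2D.

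The agonists come first. IL1A, which encodes the IL-1α released by damaged cells, was read at 94.5, 98.1 and 89.8 CPM in labelled KOs 3D and 3.37, 4.08 and 4.83 CPM in labelled KOs 2D. KOd cells gave 36.4, 39.9 and 20.9 CPM in 3D and 8.37, 9.94 and 15.3 CPM in 2D. In wt cells the values were 19.1, 19.5 and 11.0 CPM in 3D, 50.7 and 57.5 CPM in wt 2D Rosens and 1.46, 1.38 and 0.863 CPM in 2D. Every 3D library was above every 2D library in standard medium of its own genotype, while both wt 2D Rosens libraries were above every wt 3D library. Ordered by their means the 7 groups were separate except for wt 3D and KOd 2D, whose ranges overlapped. The log2 fold change of 3D over 2D was 4.53 ± 0.28 (adjusted p = 6.8e-10) in labelled KOs, 1.53 ± 0.25 (adjusted p = 4.1e-05) in KOd and 3.74 ± 0.32 (adjusted p = 2.03e-08) in wt. The KOd response was the smaller of these, and its log2 difference from that of wt was -2.21 ± 0.41 (adjusted p = 0.00058). That of labelled KOs, 0.79 ± 0.42 (adjusted p = 0.156), did not pass. In 2D both pools were already above wt, with log2 fold changes of 1.71 ± 0.33 (adjusted p = 0.000322) in labelled KOs 2D and 3.17 ± 0.32 (adjusted p = 4.4e-07) in KOd 2D. In 3D they were 2.50 ± 0.25 (adjusted p = 2.1e-07) in labelled KOs 3D and 0.97 ± 0.25 (adjusted p = 0.0054) in KOd 3D.

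IL1B, the agonist whose precursor caspase-1 cuts, had 213, 216 and 208 CPM in labelled KOs 3D and 2.27, 2.87 and 2.33 CPM in labelled KOs 2D. It had 15.5, 17.2 and 10.4 CPM in KOd 3D and 1.34, 1.12 and 1.69 CPM in KOd 2D. The wt values were 6.20, 5.88 and 4.11 CPM in 3D, 49.1 and 62.6 CPM in wt 2D Rosens and 0.878, 0.335 and 0.432 CPM in 2D. The 7 groups did not overlap with their neighbours in the order of means, which spanned 387-fold. The 3D over 2D log2 fold change of 6.41 ± 0.23 (adjusted p = 6.63e-13) in labelled KOs exceeded that of wt, 3.28 ± 0.29 (adjusted p = 3.15e-08), with a log2 difference of 3.13 ± 0.43 (adjusted p = 3.39e-05). In KOd it was 3.37 ± 0.23 (adjusted p = 1.29e-09), and its difference from wt, 0.09 ± 0.44 (adjusted p = 0.905), did not pass. Over wt 3D the log2 fold change of IL1B was 5.30 ± 0.22 (adjusted p = 3.22e-12) in labelled KOs 3D and 1.41 ± 0.20 (adjusted p = 2.56e-05) in KOd 3D. Over wt 2D it was 2.16 ± 0.31 (adjusted p = 1.53e-05) in labelled KOs 2D and 1.32 ± 0.34 (adjusted p = 0.00442) in KOd 2D.

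Tumorsphere medium without spheres had a larger effect on both agonists in wt cells than sphere culture had. Over wt 2D, wt 2D Rosens rose by 5.44 ± 0.33 (adjusted p = 3.79e-09) for IL1A and by 6.65 ± 0.28 (adjusted p = 5.5e-11) for IL1B on the log2 scale. Directly compared, wt 3D lay below wt 2D Rosens, with log2 fold changes of -1.71 ± 0.27 (adjusted p = 3.02e-05) for IL1A and -3.37 ± 0.21 (adjusted p = 6.91e-10) for IL1B. The exchange of medium removed serum and hydrocortisone and added growth factors at once, and these parts cannot be told apart here. Across groups the leukocyte markers moved in part with the agonists. Their summed level was 10.7 to 13.3 CPM in labelled KOs 3D, 6.49 to 8.69 in KOd 3D, 3.80 to 4.60 in wt 3D, 5.88 to 8.13 in wt 2D Rosens, 3.04 to 4.99 in labelled KOs 2D, 2.34 to 3.35 in KOd 2D and 1.76 to 3.02 in wt 2D. The markers that led it were CD163 (at most 6.21 CPM), CD14 (at most 5.32), ITGAM (at most 4.24) and PTPRC (at most 2.44), and the part of such cells in the agonist levels was not tested.

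The ratio of the agonists to each other also moved. Per kilobase of the deposited gene length, a column whose making the sources used here do not describe, IL1B stood at 4.31 to 4.53 times IL1A in labelled KOs 3D and at 0.944 to 1.38 times in labelled KOs 2D. It stood at 0.832 to 0.979 times in KOd 3D and at 0.216 to 0.313 times in KOd 2D. In wt cells it was 0.589 to 0.729 times IL1A in 3D, 1.89 and 2.13 times in wt 2D Rosens and 0.476 to 1.17 times in 2D. IL1B thus exceeded IL1A in each library of labelled KOs 3D and wt 2D Rosens, and IL1A exceeded IL1B in each library of wt 3D and of KOd in either culture.

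IL1RN encodes the antagonist that competes with the agonists for IL1R1. It was read at 23.6, 21.2 and 19.9 CPM in labelled KOs 3D and 0.358, 0.0805 and 0.142 CPM in labelled KOs 2D. In KOd it was 1.34, 2.84 and 0.630 CPM in 3D, while 1 read was counted over the 3 libraries of KOd 2D. The wt libraries had 0.0323, 0.202 and 0.174 CPM in 3D, 0 and 0.157 CPM in wt 2D Rosens and 0.146, 0.0373 and 0.157 CPM in 2D. Every labelled KOs 3D library was above every KOd 3D library, both stood clear of wt 3D, and every library of the 5 other groups was at 0.358 CPM or less. The log2 fold change over wt 3D was 7.29 ± 0.58 (adjusted p = 9.96e-09) in labelled KOs 3D and 3.55 ± 0.63 (adjusted p = 0.000274) in KOd 3D. Over its adherent counterpart the log2 fold change of labelled KOs 3D was 6.73 ± 0.54 (adjusted p = 1.26e-08). The KOd 3D value over wt 3D was 2.86 without KOd 3D replicate B and 4.13 without the 3 libraries that stand apart, and the labelled KOs 3D value over 2D was 7.56 without labelled KOs 2D replicate A. KOd 3D against KOd 2D passed as well (adjusted p = 7.34e-06), with 151 reads against 1, a ratio per library size of 142 (95% counting interval 25.03 to 5628).

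In wt, neither tumorspheres nor the medium moved IL1RN past the test, with log2 fold changes of 0.24 ± 0.99 (adjusted p = 0.846) for wt 3D and -0.55 ± 1.29 (adjusted p = 0.791) for wt 2D Rosens, both over wt 2D. The responses of the pools were larger than that of wt, with log2 differences of 6.49 ± 1.37 (adjusted p = 0.00136) in labelled KOs and 6.47 ± 1.69 (adjusted p = 0.00795) in KOd, where the KOd value rests on the single read in KOd 2D. Set against the agonists per kilobase, IL1RN was 0.0557 to 0.0640 of the summed IL1A and IL1B in labelled KOs 3D, 0.0212 to 0.0537 in KOd 3D and 0.00143 to 0.0127 in wt 3D. In wt 2D Rosens, where the agonists were also high, it was 0 and 0.00121, and in wt 2D 0.0254 to 0.128 from 9 IL1RN reads in all. The antagonist was thus at most 0.128 of the agonist mRNA in each of the 20 libraries.

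**Figure D3:**
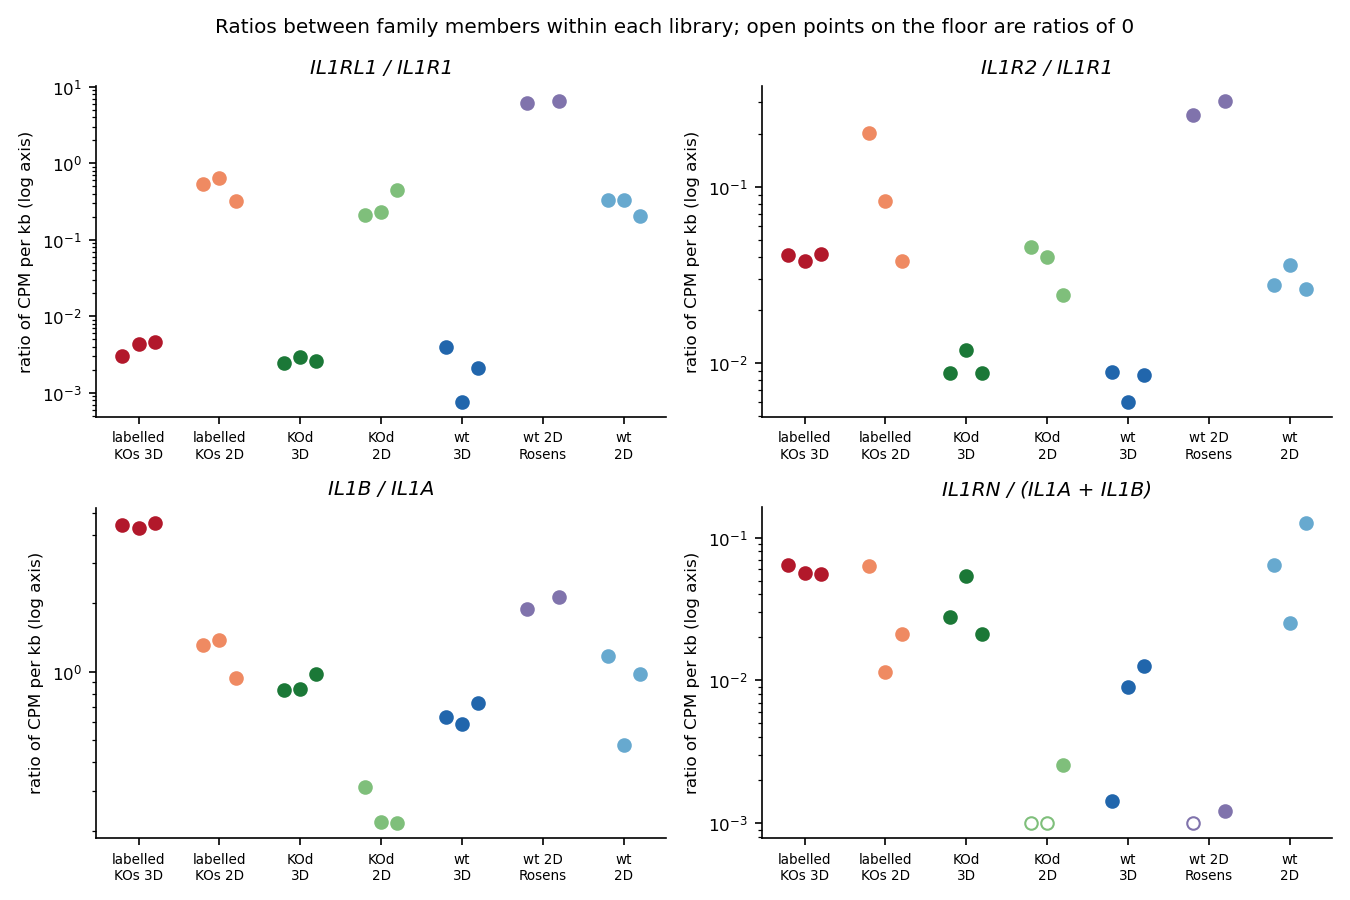
Each panel shows a ratio of 2 levels in CPM per kilobase within the same library, on a log axis, with 1 point per library and open points at the floor where the ratio is 0. The ratio of IL1RL1 to IL1R1 lies at 6.15 and 6.49 in wt 2D Rosens and at 0.00466 or less in every 3D library.

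Of the receptors that bind IL-1, IL1R1 was above the decoy IL1R2 per kilobase in every library. Its level was 352, 348 and 322 CPM in labelled KOs 3D and 137, 122 and 89.0 CPM in labelled KOs 2D. KOd had 146, 141 and 126 CPM in 3D and 39.6, 36.6 and 39.4 CPM in 2D. The wt cells had 151, 156 and 156 CPM in 3D, 149.5 and 159.7 CPM in wt 2D Rosens and 87.6, 83.4 and 72.4 CPM in 2D. In the order of means wt 2D Rosens and wt 3D overlapped, as did KOd 3D and labelled KOs 2D, and the others were separate. Tumorspheres were above adherent cells in standard medium, with log2 fold changes of 1.56 ± 0.12 (adjusted p = 7.19e-09) in labelled KOs, 1.83 ± 0.12 (adjusted p = 6.71e-10) in KOd and 0.93 ± 0.12 (adjusted p = 2.44e-06) in wt. Both pools responded more than wt, with log2 differences of 0.63 ± 0.16 (adjusted p = 0.00651) in labelled KOs and 0.90 ± 0.17 (adjusted p = 0.000553) in KOd, from different starting levels.

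The medium alone raised IL1R1 in wt, at a log2 fold change of 0.93 ± 0.13 (adjusted p = 3.11e-05) over wt 2D. Between wt 3D and wt 2D Rosens it was 0.00 ± 0.13 (adjusted p = 0.997), and the ranges overlapped. In adherent cells IL1R1 fell in KOd 2D relative to wt 2D (-1.07 ± 0.12, adjusted p = 1.28e-06) and rose in labelled KOs 2D (0.51 ± 0.12, adjusted p = 0.0013), a call that was lost when only the compared groups were fitted (adjusted p = 0.052). Over wt 3D the log2 fold change was 1.14 ± 0.12 (adjusted p = 2.46e-07) in labelled KOs 3D and -0.17 ± 0.12 (adjusted p = 0.285) in KOd 3D. Exons of IL1R1 overlap those of the antisense gene IL1R1-AS1 in GENCODE v29. The libraries were stranded, but the strand setting of the counting is not given in the sources used here.

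IL1RAP, the co-receptor shared by the IL-1 and IL-33 receptors, fell in the tumorspheres of both pools, where IL1R1 rose. It was 34.6, 33.3 and 32.2 CPM in labelled KOs 3D and 35.9, 50.0 and 49.9 CPM in labelled KOs 2D. KOd had 42.2, 43.1 and 60.9 CPM in 3D and 84.0, 86.5 and 86.0 CPM in 2D. The wt values were 80.9, 84.0 and 80.1 CPM in 3D, 41.7 and 40.1 CPM in wt 2D Rosens and 58.7, 57.8 and 58.7 CPM in 2D. Tumorspheres were lower than adherent cells in both pools and higher in wt, with no overlap in any of the 3 pairs. The 3D over 2D log2 fold changes were -0.44 ± 0.13 (adjusted p = 0.00522) in labelled KOs, -0.81 ± 0.13 (adjusted p = 1.9e-05) in KOd and 0.48 ± 0.12 (adjusted p = 0.00259) in wt. With library totals alone in place of TMM the log2 fold change in labelled KOs was -0.22 and did not pass (adjusted p = 0.109). The difference from the wt response passed in both pools, at -0.92 ± 0.18 (adjusted p = 0.000632) in labelled KOs and -1.29 ± 0.18 (adjusted p = 3.64e-05) in KOd.

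On the log2 scale, against wt 3D, IL1RAP fell in labelled KOs 3D (-1.29 ± 0.13, adjusted p = 1.3e-07) and in KOd 3D (-0.75 ± 0.12, adjusted p = 0.000155). In 2D it rose in KOd (0.55 ± 0.12, adjusted p = 0.00155) and fell in labelled KOs (-0.37 ± 0.12, adjusted p = 0.019). That fall was -0.23 without labelled KOs 2D replicate A and then did not pass (adjusted p = 0.0862), nor did it with the compared groups alone (adjusted p = 0.0603). In wt 2D Rosens its log2 fold change over wt 2D was -0.52 ± 0.14 (adjusted p = 0.01), a call lost without either of its 2 libraries (adjusted p up to 0.0839). Per kilobase, IL1RAP was 0.0803 to 0.0836 of IL1R1 in labelled KOs 3D and 1.78 to 1.98 times IL1R1 in KOd 2D, the only group in which the co-receptor exceeded IL1R1. Exons of IL1RAP overlap a same-strand lincRNA, AC108747.1, in GENCODE v29, so some of its reads are uncertain.

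IL1R2, the decoy, was low except in libraries labelled KOs and in adherent cells under tumorsphere medium. Its level was 4.14, 3.81 and 3.82 CPM in labelled KOs 3D and 7.98, 2.90 and 0.965 CPM in labelled KOs 2D. KOd had 0.367, 0.479 and 0.315 CPM in 3D and 0.515, 0.419 and 0.276 CPM in 2D. Among wt cells it was 0.388, 0.269 and 0.383 CPM in 3D, 10.9 and 14.1 CPM in wt 2D Rosens and 0.695, 0.857 and 0.549 CPM in 2D. The 3 labelled KOs 2D libraries were spread over 0.965 to 7.98 CPM, with replicate A, 1 of the libraries that stand apart, on top. Over wt 2D the medium raised IL1R2, at a log2 fold change of 4.15 ± 0.54 (adjusted p = 1.55e-05), and wt 3D lay far below wt 2D Rosens (-5.16 ± 0.57, adjusted p = 6.11e-07). Labelled KOs exceeded wt, with log2 fold changes of 2.49 ± 0.51 (adjusted p = 0.000479) in 2D and 3.49 ± 0.55 (adjusted p = 3.39e-05) in 3D, while KOd against wt did not pass in either culture, at -0.79 ± 0.62 (adjusted p = 0.322) in 2D and 0.16 ± 0.67 (adjusted p = 0.882) in 3D. Without labelled KOs 2D replicate A the 2D value of labelled KOs was 1.46 (adjusted p = 0.00172).

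No 3D against 2D change of IL1R2 passed in the fit of all libraries. In labelled KOs the log2 fold change was -0.02 ± 0.43 (adjusted p = 0.974), but 1.02 without the 3 libraries that stand apart, where it passed (adjusted p = 0.00229). Its difference from the wt response was then 2.10 and passed too (adjusted p = 0.00622), against 0.99 ± 0.76 (adjusted p = 0.33) with all libraries. In KOd it was -0.05 ± 0.66 (adjusted p = 0.948), and in wt -1.01 ± 0.63 (adjusted p = 0.173), which passed with the compared groups alone (-0.997, adjusted p = 0.025). Per kilobase the decoy reached 0.253 and 0.306 of IL1R1 in wt 2D Rosens, 0.0380 to 0.0412 in labelled KOs 3D and 0.0377 to 0.202 in labelled KOs 2D. It was at most 0.0118 of IL1R1 in KOd 3D and at most 0.00888 in wt 3D.

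The IL-33 axis gave the largest changes. IL33, the alarmin, was read at 55.2, 52.5 and 48.5 CPM in labelled KOs 3D and at 0.0478, 0.0537 and 0.0568 CPM in labelled KOs 2D. KOd had 35.6, 35.5 and 51.8 CPM in 3D and 0.0343, 0.0698 and 0.0690 CPM in 2D. The wt cells gave 20.5, 22.9 and 21.3 CPM in 3D and 12.2 and 11.8 CPM in wt 2D Rosens, while 1 read was counted in the 3 wt 2D libraries together. Every library grown in tumorsphere medium was at least 11.8 CPM and every library in standard medium at most 0.0698 CPM. The 1926 reads of wt 3D against 1 in wt 2D gave a ratio per library size of 1715 (95% counting interval 308 to 67789), and the 632 reads of wt 2D Rosens against that 1 gave 956 (171 to 37808). Both passed (adjusted p = 8.78e-14 and 9.78e-12). In the pools the 3D over 2D log2 fold change was 9.85 ± 0.25 (adjusted p = 8.65e-15) in labelled KOs and 9.38 ± 0.26 (adjusted p = 1.74e-14) in KOd. The 2D libraries held 6 reads in labelled KOs and 5 in KOd, so these ± values can understate the counting error.

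Within tumorsphere medium the IL33 differences were smaller. Tumorspheres of wt exceeded wt 2D Rosens at a log2 fold change of 0.85 ± 0.16 (adjusted p = 0.000156). Over wt 3D it was 1.27 ± 0.13 (adjusted p = 3.42e-07) in labelled KOs 3D and 0.93 ± 0.13 (adjusted p = 3.42e-05) in KOd 3D, and the 2 pools overlapped with each other. In 2D, 6 reads in labelled KOs 2D and 5 in KOd 2D stood against 1 in wt 2D and did not pass (adjusted p = 0.183 for each). Of the endothelial markers, from cells known to hold IL-33, PECAM1 reached 97.1 CPM in KOd 3D replicate C while CDH5 was at most 0.105 CPM. The 5 such markers summed to 31.2 to 36.2 CPM in labelled KOs 3D, 90.2 to 97.4 in KOd 3D, 50.6 to 73.3 in wt 3D, 10.4 to 10.5 in wt 2D Rosens, 8.43 to 42.2 in labelled KOs 2D, 7.49 to 8.82 in KOd 2D and 7.56 to 10.8 in wt 2D, and their part in IL33 was not tested. The difference of each pool's response from that of wt did not pass, at -0.50 ± 0.74 (adjusted p = 0.706) for labelled KOs and -0.97 ± 0.88 (adjusted p = 0.536) for KOd, where the few 2D reads make the error wide.

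IL1RL1, which encodes the IL-33 receptor ST2 and its soluble decoy form, was read at 0.907, 1.28 and 1.27 CPM in labelled KOs 3D and 63.0, 65.5 and 23.9 CPM in labelled KOs 2D. KOd had 0.306, 0.351 and 0.280 CPM in 3D and 7.14, 7.26 and 15.0 CPM in 2D. In wt cells it was 0.517, 0.101 and 0.279 CPM in 3D, 780.1 and 879 CPM in wt 2D Rosens and 24.9, 23.3 and 12.5 CPM in 2D. The adherent wt cells in tumorsphere medium stood far above every other library, all 9 tumorsphere libraries were at 1.28 CPM or less, and labelled KOs 2D, wt 2D and KOd 2D formed a middle layer in which neighbours overlapped. Tumorspheres fell, with log2 fold changes over 2D of -5.46 ± 0.43 (adjusted p = 9.49e-09) in labelled KOs, -4.95 ± 0.55 (adjusted p = 3.95e-07) in KOd and -6.05 ± 0.54 (adjusted p = 3.29e-08) in wt. With the medium on adherent wt cells its log2 fold change over wt 2D was 5.36 ± 0.40 (adjusted p = 3.03e-08), which put wt 3D at -11.41 ± 0.56 (adjusted p = 2.98e-11) relative to wt 2D Rosens. Without wt 3D replicate A, the wt tumorsphere values were -6.72 over wt 2D and -12.07 over wt 2D Rosens. The difference between a pool's response and that of wt did not pass, at 0.59 ± 0.80 (adjusted p = 0.596) in labelled KOs and 1.10 ± 1.01 (adjusted p = 0.45) in KOd.

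The smaller differences of IL1RL1 between genotypes were less stable. Labelled KOs 2D exceeded wt 2D at a log2 fold change of 1.33 ± 0.33 (adjusted p = 0.00269), with overlapping ranges. KOd 2D lay below wt 2D at -1.04 ± 0.35 (adjusted p = 0.0201), also with overlap, and this call was lost without wt 2D replicate A or B or KOd 2D replicate A or B (adjusted p up to 0.0914). Labelled KOs 3D exceeded wt 3D at 1.92 ± 0.69 (adjusted p = 0.0253), from 143 reads against 27, a call lost without labelled KOs 3D replicate B or C or wt 3D replicate B or C (adjusted p up to 0.0994), and 2.59 without wt 3D replicate A. It was 1.88 without the 3 libraries that stand apart and then missed the threshold (adjusted p = 0.123). KOd 3D against wt 3D did not pass (0.05 ± 0.93, adjusted p = 0.973). The tables do not separate the transcripts for membrane-bound and soluble ST2. Exons of IL1RL1 and of its neighbour IL18R1 on the same strand overlap in GENCODE v29, so reads there could go to either.

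Ligand and receptor of this pair were high together in wt 2D Rosens alone. There IL1RL1 had 780.1 and 878.9 CPM beside 12.2 and 11.8 CPM of IL33, whereas tumorspheres had IL33 with almost no IL1RL1 and standard adherent cells IL1RL1 with almost no IL33. Per kilobase, IL1RL1 was 6.15 and 6.49 times IL1R1 in wt 2D Rosens, 0.203 to 0.335 times in wt 2D and 0.000763 to 0.00402 times in wt 3D. The 4 markers of mast cells, which are known for ST2, summed to 0.0367 and 0.0393 CPM in wt 2D Rosens and 0.596 to 1.28 CPM in wt 2D. They summed to 1.65 to 2.28 CPM in labelled KOs 3D, 0.224 to 0.489 CPM in KOd 3D, 0.279 to 0.549 CPM in wt 3D, 0.0805 to 0.215 CPM in labelled KOs 2D and 0 to 0.207 CPM in KOd 2D. The part of such cells in the IL1RL1 levels was not tested.

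IL18 encodes the precursor of IL-18, a cytokine made by many epithelia without stimulation. Its level was 10.2, 9.94 and 9.50 CPM in labelled KOs 3D and 47.3, 40.8 and 46.0 CPM in labelled KOs 2D. KOd had 24.4, 22.8 and 21.1 CPM in 3D and 101, 112 and 122 CPM in 2D. In wt the values were 19.1, 19.5 and 24.5 CPM in 3D, 45.6 and 49.2 CPM in wt 2D Rosens and 81.4, 82.9 and 96.0 CPM in 2D. Tumorspheres were below adherent cells in each genotype with no overlap, with log2 fold changes of -2.18 ± 0.11 (adjusted p = 3.76e-11) in labelled KOs, -2.29 ± 0.11 (adjusted p = 8.12e-12) in KOd and -2.05 ± 0.11 (adjusted p = 4.78e-11) in wt. The difference of a pool's response from that of wt did not pass, at -0.13 ± 0.15 (adjusted p = 0.518) in labelled KOs and -0.25 ± 0.15 (adjusted p = 0.224) in KOd. The medium on adherent wt cells lowered IL18, at a log2 fold change of -0.87 ± 0.12 (adjusted p = 2.48e-05), and wt 3D was lower still, at -1.17 ± 0.12 (adjusted p = 1.42e-07) relative to wt 2D Rosens.

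The labelled KOs libraries held less IL18 than wt in either culture, with log2 fold changes of -0.96 ± 0.10 (adjusted p = 7.08e-07) in 2D and -1.09 ± 0.11 (adjusted p = 1.63e-07) in 3D. KOd 2D held more than wt 2D (0.36 ± 0.10, adjusted p = 0.00717), while KOd 3D overlapped with wt 3D (0.12 ± 0.11, adjusted p = 0.421). That last difference was 0.28 with library totals alone (adjusted p = 0.031) and 0.30 once the 3 libraries that stand apart were left out (adjusted p = 0.0238), and passed in each case. IL18 was the member with the highest level per kilobase in all 3 standard adherent groups, at 39.0 ± 3.01 in labelled KOs 2D, 97.4 ± 9.00 in KOd 2D and 75.7 ± 7.00 in wt 2D (CPM per kilobase, SD, n = 3 each). The leading member was IL1B in labelled KOs 3D (142 ± 2.73), IL1R1 in KOd 3D (23.3 ± 1.76) and wt 3D (26.2 ± 0.448, n = 3 each), and IL1RL1 in wt 2D Rosens (166 ± 14.0, n = 2).

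The chromosome 2 clusters were then read gene by gene. The receptor cluster spans 461 kb and holds 6 protein-coding genes, of which 5 were tested. In wt 2D Rosens against wt 2D all 5 rose, where 15.6% of all genes rose. Besides IL1R2, IL1R1 and IL1RL1 these were the IL-18 receptor chains IL18R1 (3.53 ± 0.25, adjusted p = 1.55e-08) and IL18RAP (adjusted p = 1.88e-05), whose 43 reads against 2 gave a ratio per library size of 32.5 with a 95% counting interval of 8.47 to 277. IL18R1 was at 97.5 and 102 CPM in wt 2D Rosens, against 7.49 to 9.50 CPM in wt 2D. Its exons overlap those of IL1RL1 on the same strand, so reads there could go to either. The rises of IL18R1 and IL1RL1 are therefore not shown to be separate. In labelled KOs 3D against wt 3D all 5 rose too, where 27.8% of all genes did, with the IL1RL1 call the unstable one described above. IL18RAP passed the filter on low counts only through wt 2D Rosens and labelled KOs 3D, and was at most 0.143 CPM in the other groups. Its rise in both comparisons thus followed from the filter, and neither count of 5 can be set against the share of all genes. In wt 3D against wt 2D, IL1R1 rose, IL1RL1 and IL18R1 (-1.01 ± 0.24, adjusted p = 0.00125) fell and the other 2 tested did not pass. IL1RL2, the IL-36 receptor gene between them, had at most 10 reads in any group and was not tested.

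The ligand cluster spans 360 kb and holds 9 genes, of which 7 were tested. All 7 rose in labelled KOs 3D, against labelled KOs 2D (32.9% of all genes rose) and against wt 3D (27.8%), the IL-36 genes beside IL1RN included. IL36G (0.392 to 0.526 CPM there) and IL1F10 (0.515 to 0.903 CPM) passed the filter on low counts only through labelled KOs 3D. In other groups they reached at most 0.107 and 0.0611 CPM. Their rises thus followed from the filter, and the count of 7 cannot be set against the share of all genes. IL36RN, the antagonist of the IL-36 receptor, was at 371 to 390.1 CPM in labelled KOs 3D, 4.38 to 22.1 CPM in KOd 3D and 0.134 to 0.453 CPM in wt 3D. IL36B, an IL-36 agonist, was at 121 to 137 CPM in labelled KOs 3D, 4.13 to 13.2 CPM in KOd 3D and 0.323 to 0.488 CPM in wt 3D. The log2 fold changes over wt 3D in labelled KOs 3D were 10.18 ± 0.58 (adjusted p = 7.95e-10) for IL36RN and 8.24 ± 0.36 (adjusted p = 5.06e-12) for IL36B. In KOd 3D they were 5.62 ± 0.58 (adjusted p = 1.59e-06) and 4.48 ± 0.35 (adjusted p = 2.99e-08) in the same order. IL1F10, between IL36RN and IL1RN, had 86 reads in labelled KOs 3D and 0 in wt 3D, at least 20.7-fold higher against a floor of 3 reads over the group. In wt 2D Rosens, where IL1A and IL1B were high, no other gene of this cluster passed over wt 2D, and IL36RN had 2 reads in all.

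**Figure D4:**
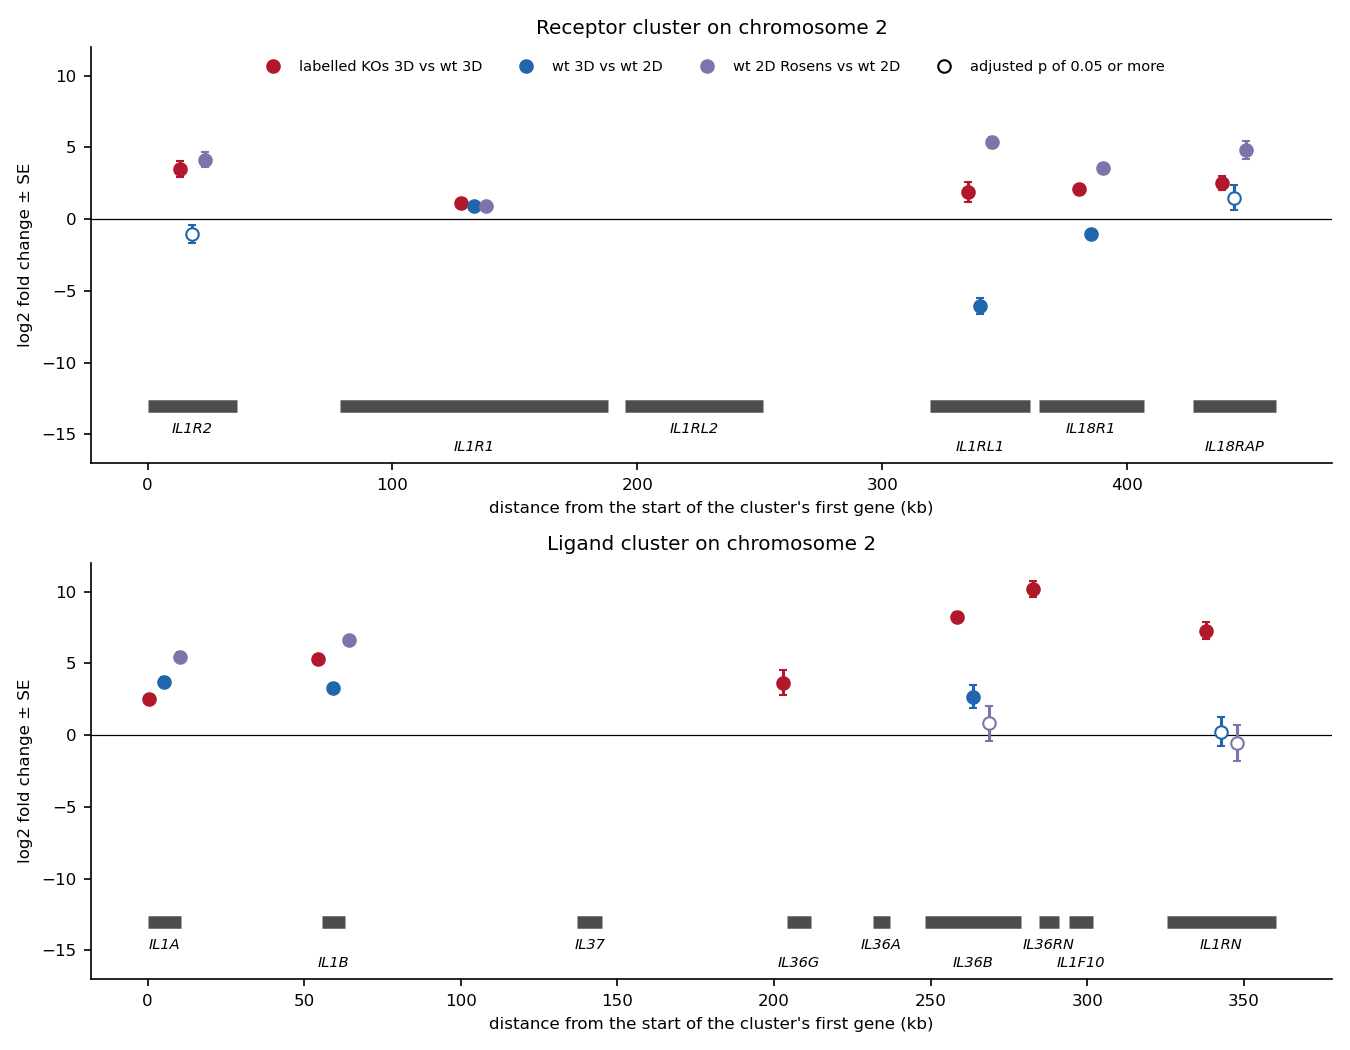
For each protein-coding gene of the receptor cluster (top) and the ligand cluster (bottom), points give the log2 fold change ± SE in 3 comparisons at the gene's place, in kb from the start of the first gene, and grey bars mark the genes. Open points did not pass, and no point is drawn for untested genes, where either group had 0 counts or where both had at most 3, so IL1F10 has none. Rosens points are high at IL1A and IL1B and not at the other genes of the ligand cluster, whereas labelled KOs 3D points stand above 2 at every gene drawn there.

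Other family members were counted as a list of 13 ligand and receptor genes, 10 of them tested. Among these, IL36G and IL1F10 passed the filter on low counts only through labelled KOs 3D, and IL18RAP only through that group and wt 2D Rosens. Their rises there followed from the filter, so counts and medians of the list in labelled KOs 3D cannot be set against those of all genes. In labelled KOs 3D against labelled KOs 2D 8 rose and 2 fell, where 65.0% of all genes passed. The median log2 fold change of the list was 3.06 there, with those 3 genes included. In KOd 3D against KOd 2D 4 rose and 2 fell (66.4% of all genes passed), and in wt 3D against wt 2D 5 rose and 1 fell (63.7%). The wt call of IL36RN rests on 29 reads against 0, at least 8.61-fold higher. Against wt, 7 rose and 1 fell in labelled KOs 3D (56.3% of all genes passed), 2 rose and 2 fell in KOd 3D (34.0%), 4 rose and 1 fell in labelled KOs 2D (53.2%), and none of the 10 passed in KOd 2D (44.6%). IL1RAPL2, a brain-expressed relative of the co-receptor, fell relative to wt 3D in labelled KOs 3D (-1.94 ± 0.41, adjusted p = 0.000641) and in KOd 3D (-2.58 ± 0.47, adjusted p = 0.000371). Its reads were few, with 17 in labelled KOs 3D and 8 in KOd 3D against 48 in wt 3D. SIGIRR, a negative regulator of the receptors, was the other faller in KOd 3D (-1.27 ± 0.24, adjusted p = 0.000439). IL18BP, the secreted IL-18 trap, fell in labelled KOs 2D (-1.69 ± 0.32, adjusted p = 0.000221).

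Of 18 genes that act just below the receptors, all were tested and their medians stayed between -0.08 and 0.20 on the log2 scale in the 9 comparisons between groups. IRAK2, a part of the receptor complex, rose with 3D culture, at log2 fold changes of 1.91 ± 0.11 (adjusted p = 3.4e-10) in labelled KOs, 1.74 ± 0.11 (adjusted p = 5.72e-10) in KOd and 2.90 ± 0.12 (adjusted p = 2.65e-12) in wt, and with the medium alone at 2.54 ± 0.13 (adjusted p = 3.37e-10). PELI2, a ubiquitin ligase that acts on IRAKs, rose at 3.51 ± 0.34 (adjusted p = 1.05e-07) in wt 3D and 2.46 ± 0.37 (adjusted p = 7.77e-05) in wt 2D Rosens, each over wt 2D. IRAK1, a kinase of the same complex, fell in tumorspheres, at -0.94 ± 0.11 (adjusted p = 1.5e-06) in labelled KOs, -0.99 ± 0.11 (adjusted p = 5.84e-07) in KOd and -0.97 ± 0.11 (adjusted p = 8.93e-07) in wt. IRAK3, an inhibitory member with few reads, was higher in labelled KOs 3D (76 reads) than in wt 3D (9 reads), at 2.56 ± 0.61 (adjusted p = 0.00167). IKBKG, the regulatory subunit of the IκB kinase, was higher in labelled KOs 3D than in wt 3D as well (1.59 ± 0.14, adjusted p = 4.83e-08). IKBKG was also higher in KOd 3D than in wt 3D (0.97 ± 0.14, adjusted p = 4.24e-05).

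Processing and release genes numbered 16, of which 12 were tested. CASP1, which cuts the IL-1β and IL-18 precursors, was at 43.3 to 43.9 CPM in labelled KOs 3D, 43.8 to 46.0 in KOd 3D and 84.9 to 96.4 in wt 3D. In adherent cells it was at 13.3 to 25.6 CPM in labelled KOs 2D, 25.4 to 27.7 in KOd 2D, 139 and 142 in wt 2D Rosens and 49.3 to 50.4 in wt 2D. CASP1 was thus lower in both pools than in wt, with log2 fold changes of -1.03 ± 0.15 (adjusted p = 1.43e-05) in labelled KOs 3D and -0.99 ± 0.15 (adjusted p = 5.43e-05) in KOd 3D, where IL1B was higher. PYCARD, the adaptor that joins caspase-1 to inflammasome sensors, was listed at 0 in all 20 libraries, and NLRP3, a sensor, was at most 0.279 CPM. The sensor AIM2 rose in tumorspheres, at 5.13 ± 0.30 (adjusted p = 2.32e-10) in labelled KOs, 3.42 ± 0.29 (adjusted p = 1.8e-08) in KOd and 3.34 ± 0.31 (adjusted p = 4.76e-08) in wt. Of the 12, 2 rose and 6 fell in labelled KOs 3D over wt 3D (56.3% of all genes passed), and 1 rose and 5 fell in KOd 3D (34.0%).

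Genes known to respond to IL-1 formed a list of 27, of which 26 were tested. In wt 2D Rosens against wt 2D 22 rose and 1 fell, where 32.0% of all genes passed, with a median log2 fold change of 3.13 against 0 over all genes. The leaders were CSF3, a granulocyte growth factor (9.13 ± 0.55, adjusted p = 3.18e-09), and IL6 (4.77 ± 0.31, adjusted p = 6.51e-09), and the faller was PTGS2, the inducible cyclooxygenase (-2.05 ± 0.54, adjusted p = 0.00737). In wt 3D against wt 2D 17 rose and 5 fell, where 63.7% of all genes passed (median 1.51), led by LIF (3.99 ± 0.26, adjusted p = 7.39e-10), and MMP3, a matrix protease, fell most (-2.41 ± 0.51, adjusted p = 0.00054). Set directly against wt 2D Rosens, 1 rose and 20 fell in wt 3D, where 62.8% of all genes passed. The fallers included CCL20, a chemokine (-5.36 ± 0.21, adjusted p = 1.96e-12).

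Over wt 3D, 22 of the 26 rose and 1 fell in labelled KOs 3D, where 56.3% of all genes passed, with a median of 2.28 against 0.02 over all genes. LCN2, which encodes an iron-trapping protein, had 3283 reads against 1, a ratio per library size of 2369 with a 95% counting interval of 425 to 93594 (adjusted p = 3.65e-11). SAA2, an acute-phase protein, had a log2 fold change of 7.36 ± 0.36 (adjusted p = 1.97e-11). In KOd 3D 12 rose and 3 fell, where 34.0% of all genes passed (median 0.39), again led by LCN2 (129 reads against 1, ratio 125 with interval 22.0 to 4960, adjusted p = 9.94e-07) and SAA2 (4.42 ± 0.33, adjusted p = 1.22e-08), while PTGS2 (-1.17 ± 0.32, adjusted p = 0.00796) and LIF (-0.66 ± 0.20, adjusted p = 0.0169) fell. In labelled KOs 3D against labelled KOs 2D 24 rose and 1 fell (65.0% of all genes passed), and in KOd 3D against KOd 2D 18 rose and 2 fell (66.4%). In adherent cells 16 rose and 4 fell in labelled KOs 2D (53.2% of all genes passed) and 13 rose and 3 fell in KOd 2D (44.6%), each over wt 2D, and PTGS2 fell in both (-3.23 ± 0.50, adjusted p = 3.75e-05 in labelled KOs 2D and -4.12 ± 0.60, adjusted p = 2.62e-05 in KOd 2D). Many of these genes also respond to other stimuli, and IL-1 was neither added nor blocked in these cultures.

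**Figure D5:**
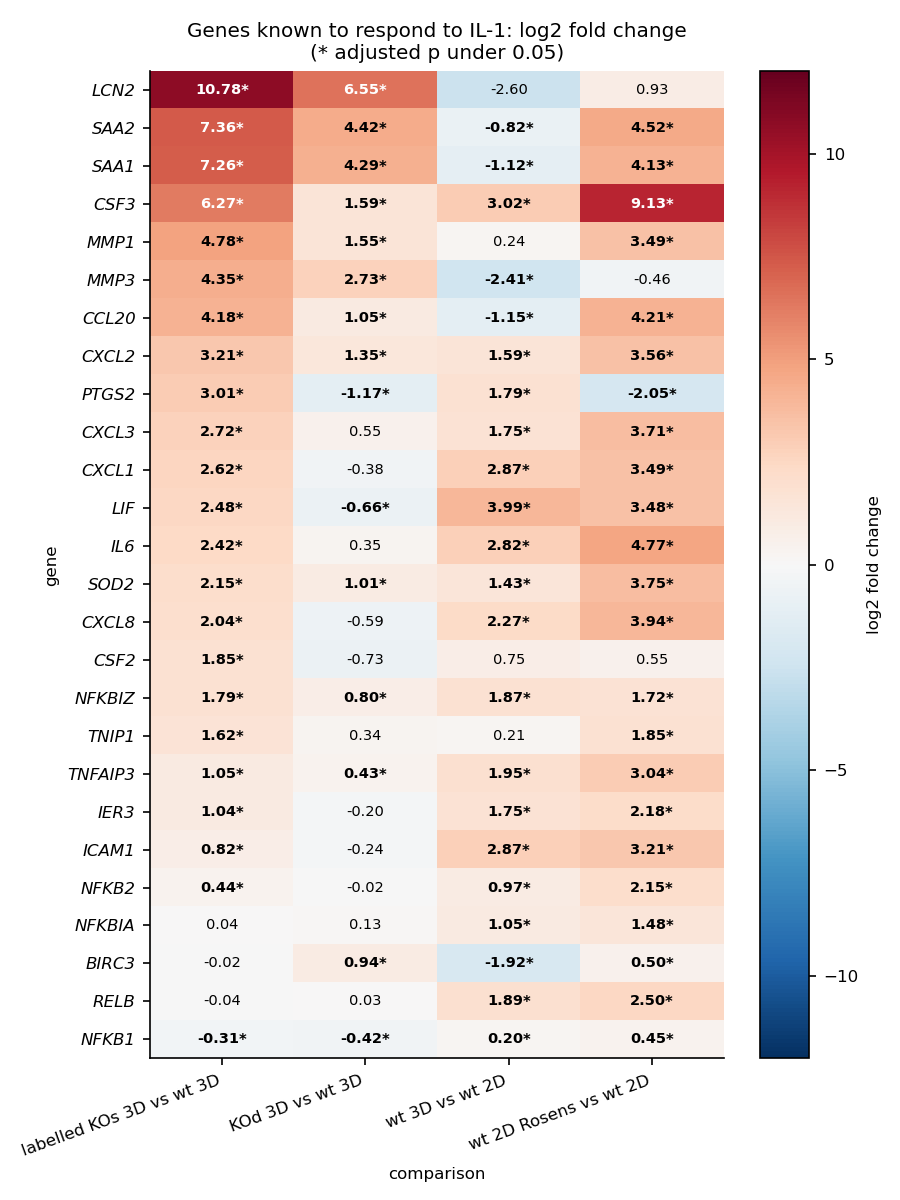
Rows are the 26 tested genes known to respond to IL-1, ordered by labelled KOs 3D over wt 3D, and columns are 4 comparisons, with the log2 fold change in each cell and * for an adjusted p under 0.05. LCN2 reaches 10.78 in labelled KOs 3D, a fitted value set by 1 read in wt 3D, and CSF3 9.13 in wt 2D Rosens, and 22 cells of the first column and 22 of the last are marked as higher.

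Across the 20 libraries, the genes whose log2 CPM most closely followed IL1A, IL1B, IL1RN, IL1R1, IL1RL1 and IL33 were listed by Pearson correlation over 13002 other genes (13003 for IL1RN) of at least 0 mean log2 CPM. The libraries share their groups, so these are descriptions. IL1A was followed by TNFAIP3 (r = 0.953), an NF-κB feedback inhibitor, then CXCL3, PCSK1, CXCL2 and IL6 (0.925). IL1B was followed by ACO1 (0.958), CSF3, SLC11A2, PDE2A and TNIP3 (0.941). For IL1RN these were IL36B (0.964), TM4SF19-DYNLT2B, TM4SF19, IL36RN and GCNT3 (0.932), 2 of them neighbours in the ligand cluster. IL1R1 went with PNKD (0.956), DGKD, PIP4P1, SPG7 and B4GALT5 (0.939). IL1RL1 went with ENTREP3 (0.981), SLC37A4, ERGIC1, KGD4 and SLC27A5 (0.956), and IL33 with BDKRB2 (0.958), CTSS, NOL4L, ZNF7 and ANKRD22 (0.951).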

How the data were processed

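Stranded mRNA libraries (TruSeq) of 20 SUM159PT cultures in 7 groups were counted per Entrez gene by the authors. The values as deposited are whole-number read counts with no normalization, made with STAR and hg38 per the submitters' processing notes; counter, strand setting and annotation are not given in the sources used here. The deposited table also holds a gene length, used only to give CPM per kilobase. Of 27864 Entrez IDs, 27740 matched a symbol.

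Counts were filtered with filterByExpr (16323 genes kept), scaled by TMM and fitted with edgeR 4.0.16 (R 4.3.3, limma 3.58.1), with 1 coefficient per group over all 20 libraries (13 residual degrees of freedom). The quasi-likelihood F test was adjusted by Benjamini-Hochberg over all genes kept, and adjusted p under 0.05 counted as passed. The SE after ± is the absolute log2 fold change divided by the square root of the F statistic of its test. It can be smaller than the counting error where a group has few reads. Differences between culture responses are interaction contrasts. A ratio against a group with 1 to 3 reads has an exact 95% counting interval, which covers counting error only. Read totals of 26396964 to 43744817 per library limit the precision of genes with few reads. The fit was tested on simulated data first.

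Whether replicates came from separate cultures is not stated, and p-values then measure only how these libraries vary, which may be technical. No 2 replicates of the same group had counts that agree within sampling noise. The replicate letters are not said to pair libraries. Deviations from the group means of same-letter libraries correlated over 0.1 in every pair only for KOd 3D and wt 3D (r = 0.210 to 0.342), and the letter as a block was tried there and in all groups.

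The genes and lists were chosen with earlier results of these data known. Besides the 9 genes, those named are NNMT, up to 2 called genes per direction, list and comparison with the largest change, the 5 genes most correlated with a member, the neighbours in the chromosome 2 clusters, and CASP1, PYCARD, NLRP3 and IL18R1 levels chosen after their values were seen. Tried in place of these settings were DESeq2 1.42.0, RLE factors, library totals without TMM, no filter or a stricter one (1 CPM in at least 3 libraries), the compared groups alone, the replicate block, leaving out each library in turn and leaving out the 3 libraries that stand apart. Promoters are RefSeq's on GRCh38.p14, and overlaps of exons are from GENCODE v29. Protein was not analysed here.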

Additional observations from a re-analysis of the deposited data

Results flagged for a closer look

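In 8 tests the 3D against 2D change of a pool differed from that of wt (interaction in edgeR, adjusted p under 0.05), and these are given on the log2 scale as pool minus wt. They are 4 of the 9 genes in each pool, while the share of all genes past the threshold was 36.8% for labelled KOs and 29.1% for KOd. IL1RN passed the filter on low counts only through the tumorspheres of these pools, so the counts cannot be set against that share. In the labelled KOs pool the differences were 3.13 for IL1B (adjusted p = 3.39e-05), 6.49 for IL1RN (0.00136), 0.63 for IL1R1 (0.00651) and -0.92 for IL1RAP (0.000632). In KOd they were -2.21 for IL1A (adjusted p = 0.00058), 6.47 for IL1RN (0.00795), 0.90 for IL1R1 (0.000553) and -1.29 for IL1RAP (3.64e-05). IL1RN, IL1R1 and IL1RAP thus differed from wt in the same direction in both pools, whose contrasts share the wt libraries. The IL1RN value of KOd rests on 1 read in KOd 2D. These 8 calls were not lost under any alternative tried, and the cause of the differences was not tested.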

How the results depend on the processing

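Of the 99 values that the 9 genes give in 11 comparisons, 92 to 99 kept their direction and their side of the threshold under each alternative applied to them all, and 87 of the 91 that could be fitted did with the compared groups alone. The reversals were among values that had not passed. IL1R1 in wt 3D against wt 2D Rosens, near 0, was 0.0265 with RLE factors, 0.0155 with 1 CPM in at least 3 libraries, 0.025 in DESeq2, 0.0017 with the compared groups alone and 0.0559 with the replicate block. IL1R2 in labelled KOs 3D against labelled KOs 2D was 0.1723 with library totals alone and 0.1996 with the replicate block. The labelled KOs minus wt response of IL18 was 0.0899 with library totals alone. The replicate block in all groups changed no call of a member, and neither did the block within KOd 3D and wt 3D alone.

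Leaving out the 3 libraries that stand apart gave 1.0157 for IL1R2 in labelled KOs 3D against labelled KOs 2D (passed), 0.062 for IL1R2 in KOd 3D against KOd 2D, -0.034 for IL1RN in labelled KOs 2D against wt 2D and 0.0427 for the labelled KOs minus wt response of IL18. All genes called in wt 2D Rosens against wt 2D were then 7968, against 5224 with all libraries, and between 2752 (without wt 2D Rosens replicate B) and 6585 (without labelled KOs 2D replicate A) when 1 library was left out. IL1RN in KOd 2D against wt 2D passed in DESeq2 alone (-3.19, adjusted p = 0.0457).

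Values whose sign turned when 1 library was left out had not passed, and they ranged as follows on the log2 scale. IL1RN ran over -0.1681 to 0.7161 in wt 3D against wt 2D, -4.9122 to 0.4613 in wt 2D Rosens against wt 2D, -0.2217 to 5.157 in wt 3D against wt 2D Rosens and -0.0317 to 1.1572 in labelled KOs 2D against wt 2D. IL1R2 ran over -0.4754 to 1.0141 in labelled KOs 3D against labelled KOs 2D, -0.2643 to 0.1597 in KOd 3D against KOd 2D and -0.0167 to 0.2822 in KOd 3D against wt 3D. IL1R1 ran over -0.0505 to 0.0588 in wt 3D against wt 2D Rosens, IL1RL1 over -0.3541 to 0.7231 in KOd 3D against wt 3D, and the KOd minus wt response of IL1B over -0.433 to 0.3506. With 0 to 6 reads per library, IL1RN was too shallow to compare among the wt groups, as was IL33 among the standard 2D cultures.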
